A study of Homo sapiens with 9 samples.

Results

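Glutathione is the main small thiol of liver cells, and 10 genes that make it, recycle it or spend it are described here in human HepG2 cells with and without guide RNAs against KEAP1. The genes are SLC7A11, GCLC, GCLM, GSS, GSR, GPX1, GPX2, GPX4, GLRX and GGCT. They were chosen by their role, with earlier results of these data known. They were looked up in the count table by Entrez number, and all 10 of them were found among its 12798 rows. HepG2 cells are an established line from a human liver tumour that keeps many hepatocyte genes on. RNA was collected 48 h after the cells had been seeded in 6-well plates, and 3′ end libraries were sequenced.

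All 9 libraries came from cells carrying a lentiCRISPRv2 construct, which delivers Cas9 together with a guide RNA. The group sgCtrl (3 libraries) carried the guide labelled sgAAVS168, the group sgKeap1-1 (3 libraries) carried the first KEAP1 guide and the group sgKeap1-2 (3 libraries) carried the second. Controls and KEAP1-targeted cells therefore share the vector, the Cas9 and the growth in EMEM, and no library of unmodified cells was used here. Per the methods, cells were transduced and then selected with puromycin, with no isolation of a clone described, so a group may mix edited and unedited cells. The labels do not say that the 3 libraries of a group came from separate cultures, so the p-values measure the spread between these libraries, which may be technical. The comparisons of both guides use the same 3 sgCtrl libraries and are not independent of each other.

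Glutathione is built from glutamate, cysteine and glycine. Cystine enters the cell through the exchanger xCT (SLC7A11) and is reduced to cysteine, glutamate-cysteine ligase (a catalytic subunit, GCLC, and a modifier subunit, GCLM) joins cysteine to glutamate, and glutathione synthetase (GSS) adds glycine. Glutathione peroxidases oxidise the tripeptide while removing peroxides, glutathione reductase (GSR) restores it with NADPH, glutaredoxin (GLRX) uses it to free protein thiols, and gamma-glutamylcyclotransferase (GGCT) acts on gamma-glutamyl amino acids in the breakdown cycle. KEAP1 is the adaptor that marks the transcription factor NRF2 (NFE2L2) for degradation, and NRF2 is known for binding antioxidant response elements in the promoters of many of these genes. The question addressed is which steps of this pathway differ in mRNA level when KEAP1 is targeted.

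The core of the antioxidant response element, read here as TGACNNNGC on either strand (GCNNNGTCA on the opposite strand), was searched in RefSeq promoter windows of build GRCh38.p14, from 250 bases before to 50 bases after the annotated start. Of the 10 genes, 6 had a window, and 2 of these held a match, GCLM and GPX2. Both were among the genes with higher mRNA levels described next, as was GCLC, whose window held none. The windows of GPX1, GPX4 (3 windows) and GLRX held none either, and GSS, GSR, SLC7A11 and GGCT were not in the promoter table used. Sites outside these windows were not searched. A match stood in 13.3% of all 35116 windows of this length, so that a match is a description of letters and not a measured binding site. The 250 bases before the start are shown in gene orientation for both genes, with the match in capitals. The GCLM stretch is chr1:93909431-93909680 on the minus strand, and its match lies 34 to 26 bases before the start. The GPX2 stretch is chr14:64942746-64942995 on the minus strand, and its match lies 122 to 114 bases before the start.
GCLM: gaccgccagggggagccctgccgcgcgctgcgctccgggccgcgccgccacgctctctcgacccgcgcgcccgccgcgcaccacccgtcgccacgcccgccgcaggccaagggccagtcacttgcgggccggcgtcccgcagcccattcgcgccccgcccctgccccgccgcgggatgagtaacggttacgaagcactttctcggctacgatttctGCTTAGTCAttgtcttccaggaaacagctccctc
GPX2: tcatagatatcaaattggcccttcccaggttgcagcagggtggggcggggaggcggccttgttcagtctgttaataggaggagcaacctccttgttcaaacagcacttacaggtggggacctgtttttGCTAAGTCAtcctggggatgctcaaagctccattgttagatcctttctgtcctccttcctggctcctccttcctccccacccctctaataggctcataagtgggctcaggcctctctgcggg
Both matches read as GCNNNGTCA on the sense strand and so as TGACNNNGC on the opposite one.

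Depth was 3011644 to 4725840 reads counted on genes with an Entrez number, and the 10 genes held 0.1045 to 0.1088% of them in the sgCtrl libraries, 0.1758 to 0.1925% with sgKeap1-1 and 0.1806 (replicate 3) to 0.2278% with sgKeap1-2. Read counts of 2 libraries of a group differed by a chi-square per degree of freedom of 15.104 and 23.775 for pairs with sgKeap1-2 replicate 3. It was 15.662 and 17.437 for pairs with sgKeap1-1 replicate 2, and 10.19 and 10.497 for those with sgCtrl replicate 2. The remaining pairs had 4.686 to 6.674, so these libraries stood apart from their groups. Levels are given as CPM, reads per 1000000 counted reads of a library after TMM scaling. KEAP1 itself had 63.3, 89.2 and 85.3 CPM in the sgCtrl libraries 1 to 3, 64.1, 62.5 and 53.4 with sgKeap1-1 and 81.9, 85.6 and 73.9 with sgKeap1-2. Each guide overlapped with sgCtrl (log2 fold change -0.40, adjusted p = 0.211, and 0.02, adjusted p = 0.952). Every sgKeap1-2 library was above every sgKeap1-1 library (0.42, unadjusted p = 0.0148, adjusted p = 0.9), as was so for 5.50% of all features. Reads from the end of a transcript do not check an edit elsewhere in the gene. Of 8 hepatocyte markers, ALB, AFP, APOA1, FGB and TF fell with both guides, TTR rose with both, and APOB and SERPINA1 did not pass the test. The summed hepatocyte marker level, scaled by library size only, was 30157 to 36646 CPM in sgCtrl, 17400 to 21104 with sgKeap1-1 and 14512 to 15731 with sgKeap1-2. Of 10 markers of other cell types, 4 were in the table, and their sum was 338 to 386, 548 to 787 and 605 to 888 CPM, most of it KRT19, a cholangiocyte keratin that rose with both guides (log2 fold change 1.28 and 1.48, adjusted p = 0.00193 and 0.000346). EPCAM and CD68 did not pass the test, COL1A1 had 1 to 15 reads per library and was not tested, and PTPRC, PECAM1, VWF, COL1A2, DCN and KRT7 were not analysed here. The part of these marker differences in the results was not tested. All libraries came from the HepG2 line, and in bulk RNA a change in the share of cells expressing a marker and in its RNA per cell cannot be told apart.

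With either guide, 5 of the 10 genes rose and 0 fell by edgeR's quasi-likelihood test at a Benjamini-Hochberg adjusted p under 0.05 over 11064 features. The same 5 genes passed with both guides, the cystine exchanger SLC7A11, both subunits of glutamate-cysteine ligase GCLC and GCLM, the reductase GSR and the peroxidase GPX2. Their fold changes lay between 1.81 (GSR with sgKeap1-1) and 4.54 (SLC7A11 with sgKeap1-2). GSS, GPX1, GPX4, GLRX and GGCT did not pass with either guide. With a block for the replicate number, GLRX also passed with each guide (6 members higher) and GGCT passed lower with sgKeap1-2 (1 lower). That fit also called more of all features, 565 higher and 412 lower with sgKeap1-1 and 1008 and 948 with sgKeap1-2. Limma-voom and the DESeq2 Wald test also called 5 higher and 0 lower with each guide, and at an unadjusted p under 0.05 edgeR's test gave 0 lower with sgKeap1-1 and 1, GGCT, with sgKeap1-2, where 15.0% and 23.3% of all features passed in either direction. Over all features tested, 2.80% were called higher and 1.40% lower with sgKeap1-1, and 5.96% and 4.85% with sgKeap1-2, while 2.77% were called higher with both guides. The median log2 fold change of the 10 genes was 0.89 and 0.93, beside -0.00 and -0.01 over all features. Levels of the 10 genes summed to 1067 ± 42.2 CPM in sgCtrl, 1841 ± 132 with sgKeap1-1 and 2108 ± 232 with sgKeap1-2 (mean ± SD, n = 3). The 5 called genes together went from 551 ± 14.1 to 1275 ± 122 and 1595 ± 208 CPM, and the other 5 stood at 516 ± 37.3, 565 ± 73.6 and 513 ± 39.5 CPM.

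**Figure D1:**
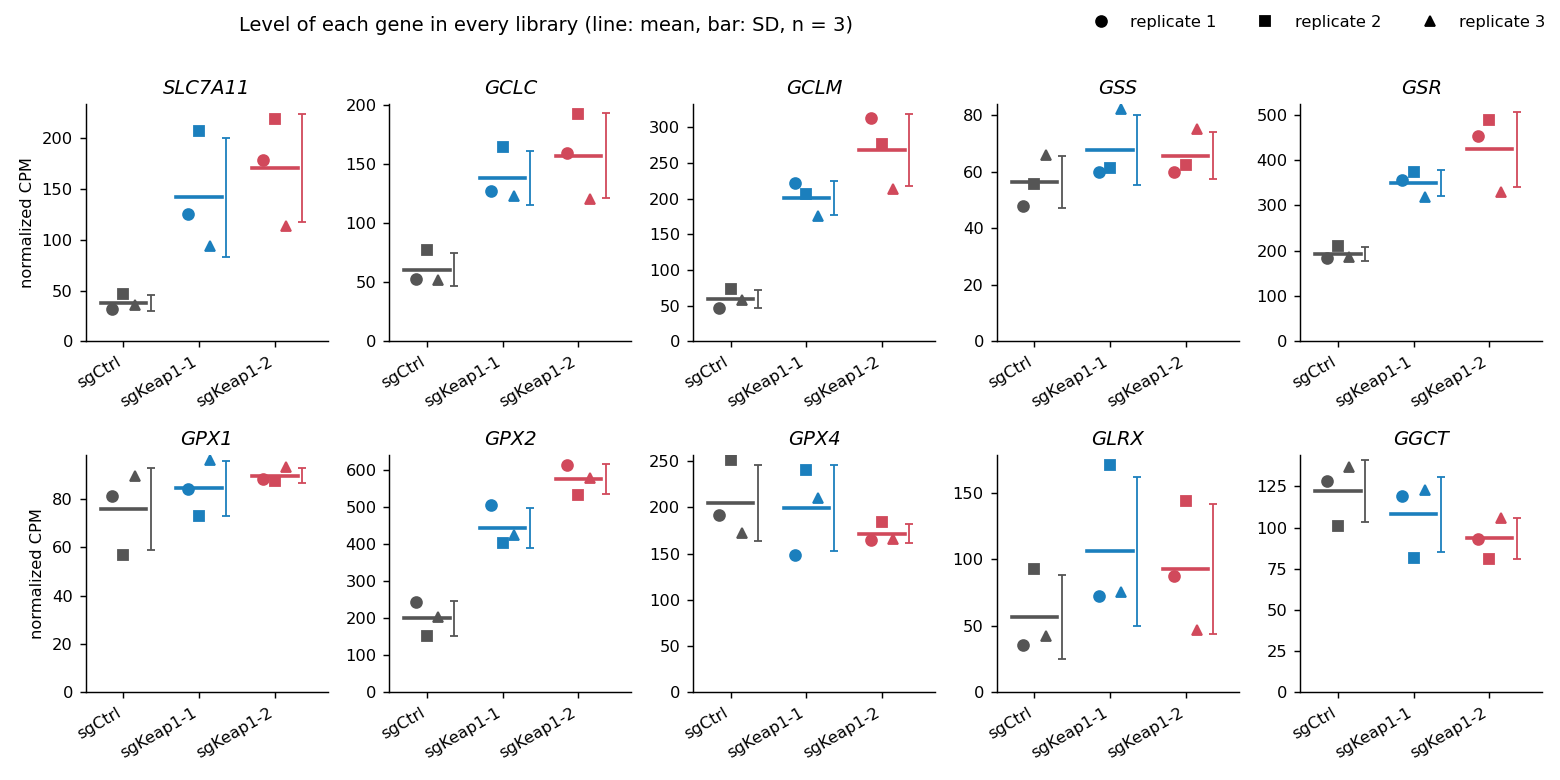
Normalized CPM of each of the 10 genes in every library, by group, with marker shape for the replicate number, a line for the mean and a bar for the SD (n = 3). In SLC7A11, GCLC, GCLM, GSR and GPX2 every library of both KEAP1 guides lies above every sgCtrl library, and in the other 5 panels the groups overlap.

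The cystine exchanger SLC7A11 and the ligase subunit GCLM had the largest fold changes of the 10 genes. SLC7A11 (Entrez gene 23657), the transporting chain of xCT, had 31.5, 46.3 and 35.4 CPM in the sgCtrl libraries 1 to 3, 125, 207 and 93.6 with sgKeap1-1 and 179, 219 and 114 with sgKeap1-2. The lowest library of either guide was above the highest sgCtrl library, and replicate 3 was the lowest within each guide. SLC7A11 rose 3.77-fold with sgKeap1-1 (log2 fold change 1.92, SE 0.33, adjusted p = 0.00833) and 4.54-fold with sgKeap1-2 (2.18, SE 0.33, adjusted p = 0.00203). SLC3A2 (Entrez gene 6520), the heavy chain that carries xCT to the membrane and also serves other amino acid exchangers, had 126, 158 and 142 CPM in sgCtrl, 174, 219 and 137 with sgKeap1-1 and 206, 235 and 187 with sgKeap1-2. It passed with sgKeap1-2 (log2 fold change 0.56, SE 0.17, adjusted p = 0.0444) and not with sgKeap1-1 (0.32, SE 0.17, adjusted p = 0.414). That call was lost without any one of sgCtrl replicate 1, 2 or 3, sgKeap1-1 replicate 1 or sgKeap1-2 replicate 1 or 2 (adjusted p = 0.0546 to 0.184), with limma-voom (adjusted p = 0.054) and with a stricter filter of at least 10 counts in every library (adjusted p = 0.051).

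The ratio of the xCT chains is given as a description, since it follows from the values of both genes. Within a library there were 0.264 ± 0.0252 SLC7A11 reads per SLC3A2 read in sgCtrl, 0.781 ± 0.141 with sgKeap1-1 and 0.806 ± 0.174 with sgKeap1-2 (mean ± SD, n = 3). The sgCtrl ratios ran from 0.249 to 0.293 and those of the guides from 0.608 to 0.943, with no overlap. An exact two-sided permutation test gave p = 0.1 for each guide, the smallest value 3 against 3 libraries can reach, so that it could not pass a 0.05 threshold, and p = 1 between the guides.

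For the first step of synthesis, the mRNA of both ligase subunits rose. GCLC (Entrez gene 2729), the catalytic subunit, had 53.0, 76.9 and 51.9 CPM in the sgCtrl libraries, 127, 164 and 123 with sgKeap1-1 and 159, 192 and 120 with sgKeap1-2. No library of a guide fell into the sgCtrl range, and replicate 2 was the highest in all 3 groups. GCLC rose 2.29-fold with sgKeap1-1 (log2 fold change 1.19, SE 0.20, adjusted p = 0.0027) and 2.6-fold with sgKeap1-2 (1.38, SE 0.20, adjusted p = 0.000472). GCLM (Entrez gene 2730), the modifier subunit that raises the affinity of the ligase for glutamate and carries the first promoter match shown above, had 46.4, 72.8 and 58.6 CPM in sgCtrl, 222, 206 and 175 with sgKeap1-1 and 313, 277 and 213 with sgKeap1-2. The gap between sgCtrl and the guides was wider than for GCLC, with no overlap. GCLM rose 3.40-fold with sgKeap1-1 (log2 fold change 1.77, SE 0.18, adjusted p = 4.87e-05) and 4.53-fold with sgKeap1-2 (2.18, SE 0.19, adjusted p = 3.44e-06).

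The ratio of the ligase subunits is likewise a description of both genes together. There were 0.875, 0.947 and 1.13 GCLM reads per GCLC read in the sgCtrl libraries, 1.75, 1.25 and 1.43 with sgKeap1-1 and 1.97, 1.44 and 1.77 with sgKeap1-2. The means were 0.984 ± 0.131, 1.48 ± 0.251 and 1.73 ± 0.266 (SD, n = 3), and every ratio with a guide was above every sgCtrl ratio. The exact permutation test gave p = 0.1 for each guide against sgCtrl, the smallest this design allows and so no pass of a 0.05 threshold, and p = 0.2 between the guides. These are ratios of 3′ reads and not of protein subunits.

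The gene of the second step of synthesis did not pass the test. GSS (Entrez gene 2937), which adds glycine, had 47.7, 55.5 and 65.8 CPM in sgCtrl, 59.9, 61.4 and 82.0 with sgKeap1-1 and 59.7, 62.2 and 75.1 with sgKeap1-2. The groups overlapped, with the third sgCtrl library above 2 of the 3 libraries of each guide. Between libraries of the same number, GSS was higher in 3 of 3 differences with each guide. These were 0.33, 0.15 and 0.32 on the log2 CPM scale with sgKeap1-1 and 0.32, 0.16 and 0.19 with sgKeap1-2. GSS did not pass with a block for the replicate number either. The log2 fold changes were 0.27 (95% interval -0.10 to 0.63, adjusted p = 0.528) and 0.22 (-0.14 to 0.59, adjusted p = 0.485), so that an increase of up to 1.55-fold with sgKeap1-1 or 1.5-fold with sgKeap1-2 lies within the intervals. The intervals of GCLC, from 1.69-fold and 1.92-fold upward, lie above those of GSS, though the difference between the genes was not tested.

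**Figure D2:**
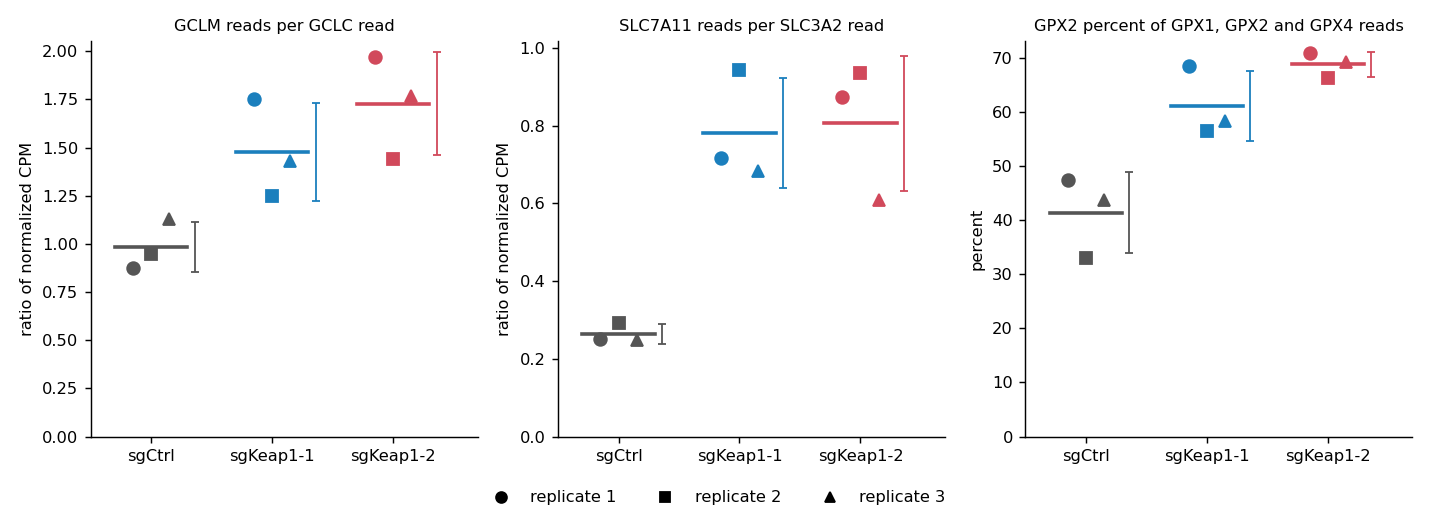
GCLM reads per GCLC read, SLC7A11 reads per SLC3A2 read (both ratios of CPM within a library) and the percent of the reads of GPX1, GPX2 and GPX4 that fall on GPX2, in every library by group, with lines for means and bars for SDs (n = 3). Every library of both guides lies above every sgCtrl library in each panel, with GCLM to GCLC means of 0.984, 1.48 and 1.73.

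The mRNA of the recycling enzyme rose as well. GSR (Entrez gene 2936), which reduces oxidised glutathione, had 183, 210 and 185 CPM in sgCtrl, 356, 373 and 318 with sgKeap1-1 and 453, 487 and 330 with sgKeap1-2. The sgCtrl libraries lay close together and far below those of either guide. GSR rose 1.81-fold with sgKeap1-1 (log2 fold change 0.86, SE 0.15, adjusted p = 0.00272) and 2.19-fold with sgKeap1-2 (1.13, SE 0.15, adjusted p = 0.000144).

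Of the peroxidases among the 10 genes, GPX1, GPX2 and GPX4, only GPX2 passed the test. GPX2 (Entrez gene 2877), the gastrointestinal form, which carries the second promoter match shown above, had 245, 152 and 203 CPM in sgCtrl, 507, 405 and 425 with sgKeap1-1 and 616, 534 and 579 with sgKeap1-2. The 3 groups did not overlap at all. GPX2 rose 2.23-fold with sgKeap1-1 (log2 fold change 1.15, SE 0.16, adjusted p = 0.000541) and 2.88-fold with sgKeap1-2 (1.52, SE 0.16, adjusted p = 2.48e-05). GPX1 (Entrez gene 2876), the widely expressed cytosolic form, had 81.3, 56.8 and 89.5 CPM in sgCtrl, 84.0, 73.0 and 96.0 with sgKeap1-1 and 88.3, 87.3 and 93.3 with sgKeap1-2. Its groups overlapped, with log2 fold changes of 0.15 (95% interval -0.21 to 0.50, adjusted p = 0.783) and 0.24 (-0.12 to 0.59, adjusted p = 0.438). Between libraries of the same number GPX1 was higher in 3 of 3 differences with each guide. These were 0.05, 0.36 and 0.10 on the log2 CPM scale with sgKeap1-1 and 0.12, 0.62 and 0.06 with sgKeap1-2. GPX4 (Entrez gene 2879), which reduces lipid hydroperoxides in membranes and is known for holding back ferroptosis, had 192, 251 and 172 CPM in sgCtrl, 149, 240 and 210 with sgKeap1-1 and 165, 184 and 166 with sgKeap1-2. Its log2 fold changes were -0.04 (-0.42 to 0.34, adjusted p = 0.96) and -0.25 (-0.63 to 0.13, adjusted p = 0.434), and the groups overlapped. In same-number differences GPX4 was higher in 1 of 3 with sgKeap1-1 and in 0 of 3 with sgKeap1-2.

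As a description, GPX2 held 47.3, 33.0 and 43.7% of the reads of GPX1, GPX2 and GPX4 in the sgCtrl libraries, 68.5, 56.4 and 58.2% with sgKeap1-1 and 70.9, 66.3 and 69.1% with sgKeap1-2. The means were 41.3 ± 7.4, 61.0 ± 6.56 and 68.7 ± 2.31% (SD, n = 3), with no overlap between sgCtrl and either guide and an overlap between the guides. The exact permutation test gave p = 0.1 for each guide, again the smallest it can give, and p = 0.2 between them. All of these peroxidases are selenoproteins, and of 8 listed genes of selenocysteine synthesis and insertion, all tested, 0 passed in either direction with either guide by edgeR's test, limma-voom or DESeq2 (median log2 fold change -0.06 and -0.23). In a list this short, 0 is near the share called over all features (2.80% higher and 1.40% lower with sgKeap1-1, 5.96% and 4.85% with sgKeap1-2). At an unadjusted p under 0.05, 0 of these passed with sgKeap1-1 and 2, both lower, with sgKeap1-2, beside 15.0% and 23.3% of all features in either direction. SEPHS2, which makes the selenium donor and was chosen after its values were seen, passed lower with sgKeap1-2 when a block for the replicate number was added (-0.33, adjusted p = 0.0294).

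Glutaredoxin and the cyclotransferase did not pass with the group as the only factor, and their call changed when the replicate number was added as a block. GLRX (Entrez gene 2745) had 35.5, 92.9 and 42.1 CPM in sgCtrl, 72.3, 171 and 75.2 with sgKeap1-1 and 87.4, 144 and 46.8 with sgKeap1-2. Replicate 2 was the highest in every group, the sgCtrl library of that number stood above 2 of the 3 libraries of each guide, and the groups overlapped. With this spread the log2 fold changes of 0.92 (SE 0.57, 95% interval -0.41 to 2.25, adjusted p = 0.54) and 0.72 (SE 0.57, -0.62 to 2.05, adjusted p = 0.527) leave a change from 0.75-fold to 4.75-fold with sgKeap1-1 within the interval. With 1 library left out, the GLRX values ran from 0.39 to 1.45 with sgKeap1-1 and from 0.25 to 1.25 with sgKeap1-2. None of these passed (lowest adjusted p = 0.282 and 0.27 by edgeR's test). GGCT (Entrez gene 79017) had 128, 101 and 137 CPM in sgCtrl, 119, 81.7 and 123 with sgKeap1-1 and 93.3, 81.0 and 106 with sgKeap1-2. Its log2 fold changes were -0.18 (-0.55 to 0.19, adjusted p = 0.731) and -0.39 (-0.76 to -0.01, adjusted p = 0.195), with overlapping groups. Between libraries of the same number, GLRX was higher with the guide by 1.02, 0.87 and 0.83 on the log2 CPM scale with sgKeap1-1 and by 1.29, 0.63 and 0.15 with sgKeap1-2, and GGCT was lower in 3 of 3 such differences with each guide. With the block, GLRX passed with both guides (log2 fold change 0.91 and 0.71, adjusted p = 0.00183 and 0.0074) and GGCT passed with sgKeap1-2 (-0.38, adjusted p = 0.0271) and not with sgKeap1-1 (-0.19, adjusted p = 0.396).

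**Figure D3:**
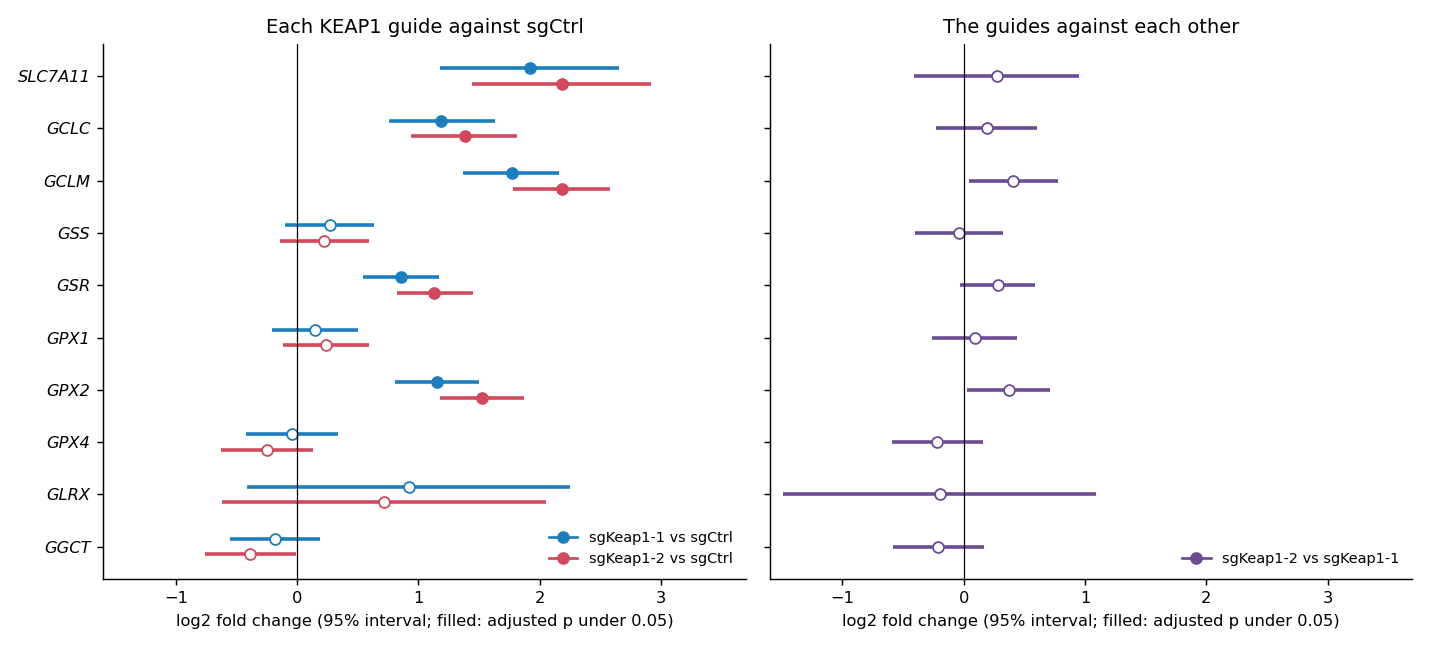
Log2 fold change with its 95% interval for each gene, each KEAP1 guide against sgCtrl on the left and sgKeap1-2 against sgKeap1-1 on the right, filled where the adjusted p was under 0.05. SLC7A11, GCLC, GCLM, GSR and GPX2 are filled for both guides on the left, from 0.86 to 2.18, and no point is filled on the right.

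By edgeR's test, limma-voom and the DESeq2 Wald test, 0 of the 10 genes differed between the guides after adjustment. With edgeR's test 0.00% of all features were called higher and 0.0181% (2 features) lower with sgKeap1-2 than with sgKeap1-1. At an unadjusted p under 0.05 in edgeR's test, 5.08% of all features and 2 of the 10 genes passed, both higher with sgKeap1-2. GCLM differed by 0.41 on the log2 scale (95% interval 0.04 to 0.78, unadjusted p = 0.0322, adjusted p = 0.956) and GPX2 by 0.37 (0.03 to 0.71, unadjusted p = 0.0334, adjusted p = 0.96). For GPX2 every sgKeap1-2 library was above every sgKeap1-1 library, as was so for 5.50% of all features, and for GCLM the groups overlapped. None of the 10 genes had every sgKeap1-2 library below every sgKeap1-1 library, beside 4.93% of all features. The intervals for the other genes were -0.03 to 0.59 for GSR, -0.23 to 0.60 for GCLC, -0.41 to 0.95 for SLC7A11, -0.40 to 0.32 for GSS, -0.26 to 0.44 for GPX1, -0.59 to 0.16 for GPX4, -1.49 to 1.09 for GLRX and -0.58 to 0.17 for GGCT. A difference of up to 1.93-fold in SLC7A11, or of 1.5-fold in GSR, therefore lies within what these libraries allow.

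Non-overlap gave the same 5 genes as the test, though it is read from the same libraries and is no separate check. For SLC7A11, GCLC, GCLM, GSR and GPX2, all 3 libraries of each guide were above all 3 sgCtrl libraries, which held for 11.5% of all features with sgKeap1-1 and 14.3% with sgKeap1-2. None of the 10 genes had all libraries of a guide below sgCtrl, beside 10.3% and 13.7% of all features.

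The genes also varied within groups, and the same library number often stood at the edge. Replicate 2 was the highest library of its group in all 3 groups for GCLC, GSR, SLC7A11, GPX4 and GLRX, and the lowest in all 3 for GPX1, GPX2 and GGCT. These are 8 of the 10 genes, beside 23.9% of all features for that number. Replicate 1 stood at an edge in all 3 groups for GPX2 (highest) and GSS (lowest), and replicate 3 for GSS, GPX1 and GGCT (highest) and GCLC (lowest), beside 6.98% and 14.0% of all features. The widest deviations from a group mean were those of GLRX, from -0.835 to 0.835 on the log2 CPM scale (sgKeap1-2 replicate 3 and sgCtrl replicate 2), and the next were those of SLC7A11, from -0.535 to 0.621. GCLM was the one gene that no number marked.

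**Figure D4:**
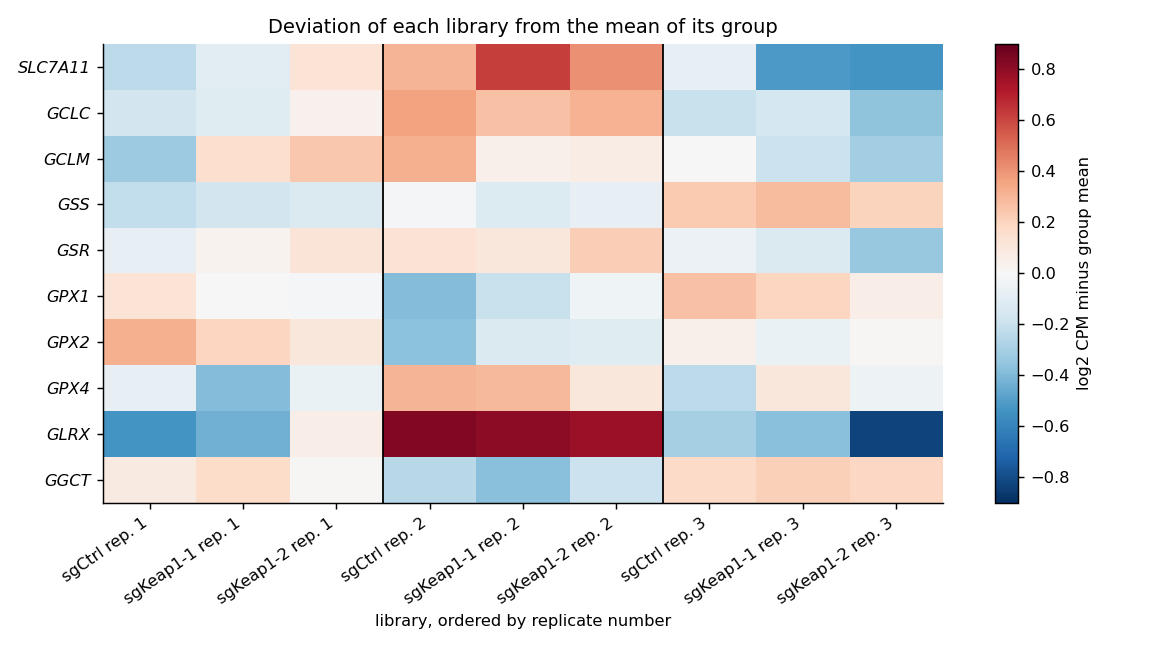
Deviation of each library from the mean of its group, in log2 CPM, for the 10 genes (rows) and the 9 libraries ordered by replicate number (columns). The replicate 2 libraries are red for GLRX, SLC7A11, GCLC, GSR and GPX4 and blue for GPX1, GPX2 and GGCT, and the scale is set by GLRX, which reaches 0.835 in either direction.

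Beyond the 10 genes, the wider pathway was read in lists of genes, each with its median log2 fold change beside that of all features (-0.00 with sgKeap1-1 and -0.01 with sgKeap1-2). Of 7 listed genes for the transport of glutathione and its conjugates, 6 were tested and 4 rose with each guide, beside 2.80% and 5.96% of all features, with medians of 0.86 and 1.11. ABCC2, the canalicular conjugate exporter, went from 53.1 ± 9.38 CPM in sgCtrl to 109 ± 24.6 with sgKeap1-1 and 150 ± 31.5 with sgKeap1-2 (mean ± SD, n = 3). ABCC3, its basolateral counterpart, went from 38.0 ± 2.07 to 83.7 ± 8.49 and 95.8 ± 2.39 CPM. Log2 fold changes were 1.04 and 1.51 for ABCC2 (adjusted p = 0.00618 and 0.000168), 1.14 and 1.33 for ABCC3 (0.000116 and 1.36e-05), 0.85 and 0.98 for ABCC4 (0.0445 and 0.0094) and 0.87 and 1.24 for ABCC5 (0.018 and 0.00075). With sgKeap1-1 the call of ABCC2 was lost without sgCtrl replicate 1 (adjusted p = 0.0504), that of ABCC5 without sgCtrl replicate 1 or 2 or sgKeap1-1 replicate 1 or 2 (0.0521 to 0.103), and that of ABCC4 without any of those or sgKeap1-2 replicate 1 (0.0704 to 0.202), with limma-voom (0.0586), with the stricter count filter (0.0509) and with only the 2 groups in the fit (0.0512), so that 1 to 4 exporters passed across the left-out libraries. With sgKeap1-2 only the call of ABCC4 was lost, without sgCtrl replicate 1 (0.0554).

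The transferases, which join glutathione to foreign and endogenous electrophiles, were split. Of 19 listed, 11 were tested, 3 rose with sgKeap1-1 and 4 with sgKeap1-2, beside 2.80% and 5.96% of all features, and the medians were 0.10 and 0.11. GSTA2 had 5.56, 6.12 and 7.25 CPM in sgCtrl, 86.7, 60.3 and 107 with sgKeap1-1 and 105, 71.7 and 126 with sgKeap1-2, which was 13.3-fold and 15.9-fold higher (adjusted p = 7.09e-06 and 1.69e-06). GSTA1 went from 44.1 ± 2.53 to 170 ± 37.9 and 207 ± 34.5 CPM (mean ± SD, n = 3), with log2 fold changes of 1.94 and 2.23 (adjusted p = 1.63e-05 and 2.36e-06). GSTA1 and GSTA2 are near copies of each other, so the split of reads between them is uncertain. MGST1, a membrane-bound form, had log2 fold changes of 1.11 and 1.18 (adjusted p = 0.0175 and 0.0066), and GSTO1, an omega class form, of 0.30 and 0.41 (0.191 and 0.0268). The call of MGST1 with sgKeap1-1 was lost without sgCtrl replicate 1 or 3 or sgKeap1-1 replicate 1 or 2 (adjusted p = 0.0585 to 0.0946), and that of GSTO1 with sgKeap1-2 without sgCtrl replicate 1, 2 or 3 or sgKeap1-2 replicate 2 (0.0602 to 0.102).

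Other enzymes that use glutathione fell or did not pass. Of 12 listed, 9 were tested, 0 rose with either guide by edgeR's test, limma-voom or DESeq2 (0 and 1 at an unadjusted p under 0.05), 2 fell with sgKeap1-1 and 3 with sgKeap1-2, beside 1.40% and 4.85% of all features, with medians of -0.24 and -0.35. GLRX5, a mitochondrial glutaredoxin of iron-sulfur cluster assembly, fell from 377 ± 25.9 to 277 ± 22.7 and 237 ± 3.99 CPM (mean ± SD, n = 3), log2 fold changes of -0.45 and -0.67 (adjusted p = 0.0387 and 0.00143). ADH5, which oxidises the glutathione adduct of formaldehyde, had log2 fold changes of -0.49 and -0.77 (adjusted p = 0.0456 and 0.00137). GPX7, a peroxidase of the endoplasmic reticulum, had -0.67 and -1.16 (adjusted p = 0.354 and 0.0414) at 3.15 to 14.0 CPM. With sgKeap1-1 the call of ADH5 was lost without any one library except sgKeap1-2 replicate 2 or 3 (adjusted p = 0.0709 to 0.182), and that of GLRX5 without any except sgKeap1-1 replicate 3 or sgKeap1-2 replicate 2 or 3 (0.0646 to 0.187), and both were lost with no scaling beyond library size (0.0512 and 0.0533), ADH5 also with limma-voom (0.0516) and the stricter count filter (0.0552). The call of GPX7 with sgKeap1-2 was lost without sgCtrl replicate 1 or 2, sgKeap1-1 replicate 1 or 3, or sgKeap1-2 replicate 1 or 3 (0.0567 to 0.182), with limma-voom (0.0501) and with only the 2 groups in the fit (0.07). HAGH, a glyoxalase that was chosen after its values were seen, lay below sgCtrl in every library of both guides (log2 fold change -0.44 and -0.40, adjusted p = 0.0752 and 0.0586). In this list 5 genes did so with each guide, beside 10.3% and 13.7% of all features. Every library was above sgCtrl for 1 gene with sgKeap1-1 and 2 with sgKeap1-2, beside 11.5% and 14.3%. GLRX3, chosen after its values were seen, was above with both guides (0.25 and 0.27, adjusted p = 0.371 and 0.212). With a block for the replicate number HAGH passed with both (adjusted p = 0.0259 and 0.0241), and with sgKeap1-2 GLO1, the other glyoxalase and likewise chosen, passed lower (-0.36, adjusted p = 0.0379) and GPX3 higher (0.94, adjusted p = 0.0267). Without sgKeap1-2 replicate 3 HAGH also passed with sgKeap1-1 (adjusted p = 0.0449). GPX3, the secreted peroxidase, chosen after its values were seen, had 56.7, 208 and 76.7 CPM in sgCtrl, 147, 259 and 153 with sgKeap1-1 and 162, 231 and 186 with sgKeap1-2 (adjusted p = 0.574 and 0.395), and without sgCtrl replicate 2 its log2 fold changes were 1.48 and 1.53 (adjusted p = 0.00956 and 0.00446). Over all left-out libraries these values went down to 0.40 and 0.45. The highest adjusted p was 0.867 with sgKeap1-1 (without sgKeap1-1 replicate 2) and 0.646 with sgKeap1-2 (without sgCtrl replicate 3).

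The lists of supply and breakdown are short, and their counts are read beside the shares called over all features (2.80% higher and 1.40% lower with sgKeap1-1, 5.96% and 4.85% with sgKeap1-2, and 15.0% and 23.3% at an unadjusted p under 0.05). Of 10 listed genes of cysteine and methionine supply, 8 were tested, 0 passed with sgKeap1-1 by edgeR's test, limma-voom or DESeq2 (2 at an unadjusted p under 0.05, both lower) and 1, SLC3A2, rose with sgKeap1-2 (1 higher and 3 lower of 8 at an unadjusted p under 0.05), with 0 lower after adjustment by any of these tests (medians -0.07 and -0.17). BHMT, which remethylates homocysteine and was chosen after its values were seen, passed lower with sgKeap1-1 in the fit with a block for replicate number (-1.81, adjusted p = 0.045, beside 0.114 without it). Of 12 listed genes of the gamma-glutamyl cycle and of glutathione breakdown, 9 were tested and 0 passed in either direction with either guide by any of these tests (medians -0.03 and -0.01), with 1 higher with each guide and 1 lower with sgKeap1-2 at an unadjusted p under 0.05. Within that list GGT1, which cleaves extracellular glutathione, was chosen after its values were seen because it passed with sgKeap1-2 without sgKeap1-2 replicate 1 (log2 fold change 1.21, adjusted p = 0.0489, beside 0.99 and 0.0823 with all libraries). Over all left-out libraries its value with sgKeap1-2 ran from 0.55 to 1.22. The highest adjusted p was 0.315, without sgKeap1-2 replicate 3. In the fit with a block for replicate number and all libraries, GGT1 passed higher (0.97, adjusted p = 0.0143) and ANPEP, an aminopeptidase also chosen after its values were seen, passed lower (-0.38, adjusted p = 0.0466) with sgKeap1-2.

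In the parallel thioredoxin system, which reduces protein disulfides with NADPH as glutathione reductase does for glutathione, 11 of 12 listed genes were tested. TXNRD1, the cytosolic thioredoxin reductase, had 73.4, 121 and 67.5 CPM in sgCtrl, 362, 457 and 324 with sgKeap1-1 and 513, 528 and 277 with sgKeap1-2. It rose 4.38-fold and 5.05-fold (log2 fold change 2.13 and 2.34, adjusted p = 0.00193 and 0.000577). PRDX1, a peroxiredoxin, passed higher with sgKeap1-2 (log2 fold change 0.56, adjusted p = 0.00484). With sgKeap1-1 it did not pass (0.31, unadjusted p = 0.0164, adjusted p = 0.182), though all 3 libraries were above sgCtrl, as held for 11.5% of all features. The genes called were 1 with sgKeap1-1 and 2 with sgKeap1-2, beside 2.80% and 5.96% of all features, and the medians of the list were 0.23 and 0.26. PRDX5, another peroxiredoxin chosen after its values were seen, passed with sgKeap1-2 with a block for the replicate number (0.38, adjusted p = 0.0231) and without sgKeap1-2 replicate 3 (0.46, adjusted p = 0.0351), beside 0.39 and 0.0775 in the fit without either. TXN, chosen after its values were seen, had log2 fold changes of 1.09 and 0.98 (adjusted p = 0.373 and 0.294) with 198 CPM in sgKeap1-2 replicate 3 beside 743 and 820 in the other libraries of that group, and without that library it was called with both guides (1.09 and 1.40, adjusted p = 0.00859 and 0.00207). With only the 2 groups in the fit, TXN was also called with sgKeap1-1 (1.09, adjusted p = 0.0169).

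Of the regulators, NFE2L2 had the one call with the group as the only factor. NFE2L2, which encodes NRF2, had 271, 234 and 264 CPM in sgCtrl, 178, 214 and 190 with sgKeap1-1 and 197, 201 and 149 with sgKeap1-2. Both guides lay below sgCtrl with no overlap, as held for 10.3% of all features with sgKeap1-1 and 13.7% with sgKeap1-2. NFE2L2 passed with sgKeap1-2 (log2 fold change -0.49, SE 0.14, adjusted p = 0.0347) and not with sgKeap1-1 (-0.40, SE 0.14, adjusted p = 0.146). The call with sgKeap1-2 was lost without sgCtrl replicate 1 or 3, sgKeap1-1 replicate 1 or 3, or sgKeap1-2 replicate 1 or 3 (adjusted p = 0.0509 to 0.134) and with only the 2 groups in the fit (0.0549), and without sgKeap1-2 replicate 3 the gene passed with sgKeap1-1 (adjusted p = 0.043). BACH1, a repressor that binds related sites, had 11.1 to 20.8 CPM in sgCtrl, 17.6 to 24.4 with sgKeap1-1 and 16.7 to 28.3 with sgKeap1-2, with log2 fold changes of 0.45 (adjusted p = 0.497) and 0.63 (adjusted p = 0.169). In the fit with a block for replicate number, NFE2L2 also passed lower with sgKeap1-1 (-0.40, adjusted p = 0.0437) and BACH1 passed higher with sgKeap1-2 (0.63, adjusted p = 0.0391).

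Genes with the profile most like that of 4 of the members were found from log2 CPM centred on the mean of the 9 libraries, as the smallest root mean square difference among 7961 genes with a mean of at least 50 reads. For SLC7A11 the nearest was ASPH, an aspartate hydroxylase, at 0.084, followed by RBM47 (0.210) and SLC4A11 (0.227). ASPH had 79.5, 128 and 87.6 CPM in sgCtrl, 332, 488 and 271 with sgKeap1-1 and 466, 566 and 307 with sgKeap1-2. The nearest to GCLC were ASAP2 (0.092), ABCC2 (0.147) and the glucose transporter SLC2A1 (0.159). GCLM had no neighbour as close, with the cell cycle inhibitor CDKN2A at 0.151, the kinesin KIF3C at 0.175 and RBM47 at 0.179. The nearest to GSR were GCNT2 (0.098), CEMIP2 (0.101) and GALNT10 (0.105). These differences describe likeness over 9 libraries that share 3 groups and their depths.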

How the data were processed

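Per the labels, RNA of 9 HepG2 libraries (3 per group) was prepared with the QuantSeq 3′ mRNA-Seq kit. The authors deposited whole-number read counts per gene without normalization. The submitters' processing notes name FastQC 0.72, cutadapt 1.16, STAR 2.7.5b, featureCounts 1.6.3, limma 3.40.6 and build hg38, while the study's supplement names GRCh37, and the annotation and strand setting are not given in the sources used here, so reads of overlapping genes may be mixed. All 12798 rows exceeded 0.5 CPM in at least 3 libraries. The 1052 rows without an Entrez number (1.339% of reads) were left out of library sizes and tests. Entrez numbers were matched to symbols for 11740 of 11746 rows.

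Features passing filterByExpr (11064) were TMM-scaled and tested with edgeR 4.0.16 (R 4.3.3, robust quasi-likelihood test, all 9 libraries, group only, Benjamini-Hochberg). The study named limma-voom, used here as an alternative (limma 3.58.1). SEs are the log2 fold change over the square root of F. The code was tested on simulated data. Genes named were the 10 members, KEAP1, NFE2L2, BACH1, SLC3A2, the cell type markers and up to 4 genes per other list past the threshold with sgKeap1-2. The 3 nearest profiles of 4 members and genes said to be chosen after their values were seen were named too. Members and lists were chosen with earlier results of these data known. The alternatives tried were a block for the replicate number, DESeq2 size factors, no scaling, limma-voom, DESeq2 1.42.0, other count filters, only 2 groups in the fit, each library left out and, chosen after seeing the data, the rows without an Entrez number kept.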

Additional observations from a re-analysis of the deposited data

How the results depend on the processing

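The 30 results of the 10 genes in 3 comparisons kept their side of the threshold, and the called ones their direction, under DESeq2 size factors, no scaling beyond library size, limma-voom, the DESeq2 Wald test, both other count filters, only the 2 groups in the fit, the rows without an Entrez number kept (chosen after seeing the data) and each of the 9 libraries left out. Against sgCtrl, values not past the threshold changed sign with a library left out for GPX1 (-0.02 to 0.28) and GPX4 (-0.20 to 0.13), both with sgKeap1-1. The members called higher stayed at 5 with each guide and those called lower at 0 in all of these. The largest adjusted p of the called members with a library left out was 0.047, for SLC7A11 with sgKeap1-1 without sgCtrl replicate 3. Replicate numbers are shared between groups, and the descriptions of same-numbered libraries start with the same prefix, whose meaning the sources do not give. Correlations of same-numbered deviations from the group means ran from -0.013 to 0.521, with those of sgCtrl and sgKeap1-2 replicate 1 (-0.013) and sgKeap1-1 and sgKeap1-2 replicate 1 (0.03) under 0.1, so the fit without the block was kept as the main one. For sgCtrl and sgKeap1-1 alone, all 3 same-numbered correlations were over 0.1 (0.226, 0.378 and 0.163), and whether the numbers pair the libraries is not settled. Not every library correlated best with its own number. Differently numbered pairs ran from -0.402 (sgKeap1-1 replicate 2 and sgKeap1-2 replicate 3) to 0.266 (sgKeap1-1 replicate 1 and sgKeap1-2 replicate 3), most of them negative. The replicate 2 pairs had the highest values, 0.341 to 0.521. The main results of GLRX and GGCT therefore rest on leaving out a block that may be real. With the replicate number as a block, 27 of the 30 results stayed on their side, and GLRX was called with both guides (log2 fold change 0.91 and 0.71, adjusted p = 0.00183 and 0.0074) and GGCT with sgKeap1-2 (-0.38, adjusted p = 0.0271), giving 6 members higher with each guide and 1 lower with sgKeap1-2. In the gene lists with sgKeap1-1 the block raised the calls of cysteine supply to 1 lower (from 0). Those of other users of glutathione rose to 3 lower (from 2). With sgKeap1-2 the block raised the calls of breakdown to 1 higher and 1 lower (from 0 each). Those of other users of glutathione rose to 1 higher and 5 lower (from 0 and 3). The selenocysteine machinery went to 1 lower (from 0) and the thioredoxin system to 3 higher (from 2). The other counts of these lists, and those of the transporters and transferases, stayed as they were against sgCtrl. Of the regulators, NFE2L2 also passed lower with sgKeap1-1 in the block fit (adjusted p = 0.0437) and BACH1 higher with sgKeap1-2 (0.0391). Over all features the block raised the calls from 310 to 565 higher and from 155 to 412 lower with sgKeap1-1, from 659 to 1008 and from 537 to 948 with sgKeap1-2, and from 0 to 5 and from 2 to 21 between the guides. A minimum of 10 counts in every library gave 189 higher with sgKeap1-1. Between the guides, limma-voom, that filter and the fit of only the 2 groups gave 0 lower, and DESeq2 gave 4 higher and 15 lower. Leaving out 1 library gave 200 to 435 higher and 70 to 253 lower with sgKeap1-1, 432 to 701 and 314 to 590 with sgKeap1-2, and 0 to 0 and 0 to 2 between the guides. The counts moved by over 1.5 times without sgCtrl replicate 3 (200 and 87 with sgKeap1-1, 432 and 346 with sgKeap1-2), without sgCtrl replicate 1 (70 and 314 lower) and, for those lower with sgKeap1-1, without sgKeap1-1 replicate 1 (78) or 3 (100) or sgKeap1-2 replicate 3 (253). Between the guides 2 were lower without sgKeap1-1 replicate 1, 1 without sgKeap1-2 replicate 2 or 3, and 0 without any of the other libraries. The cause was not tested. Groups of 3 libraries leave wide intervals for GLRX and SLC7A11.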
